A study of Mus musculus with 4 samples.

Results

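Megakaryocyte-erythroid progenitors (MEPs) were compared with LSK cells in control-treated mice with a JAK2V617F-driven, Ezh2-deleted blood system. LSK cells are the lineage-negative, Sca-1-positive, c-Kit-positive fraction of bone marrow, which holds the stem cells and multipotent progenitors. MEPs, usually sorted as c-Kit-positive and Sca-1-negative cells, are a later fraction that gives rise to red cells and megakaryocytes. The comparison rests on 2 of the 4 samples of the study, 1 array for LSK cells and 1 for MEPs, both from mice given the solvent DMSO for 2 weeks. In all groups, wild-type CD45.1+ recipients had been lethally irradiated and given total marrow of JAK2V617F;Ezh2flox/flox;Cre-ERT2 donors (strain C57BL/6), and Ezh2 had then been deleted, so the controls carry the mutation, the deletion and the transplant as well. The other 2 arrays hold the same cell types from mice given JQ1, an inhibitor of BET bromodomain proteins, for the same 2 weeks. Cells were stained and sorted, and 20 ng of total RNA per array was amplified and labelled with Cy3. The age of the mice, the antibody panel and the number of mice behind each array are not given in the sources used here. The Ezh2 gene, which encodes the catalytic subunit of Polycomb repressive complex PRC2, was at a log2 level of 3.36 on the LSK array and 3.31 on the MEP array under DMSO, and at 3.42 and 3.69 under JQ1. No array without the deletion was analysed here, and where the probe lies relative to the deleted exons was not looked up, so this level checks no label.

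As stem cells commit to the red cell and platelet lineages, the transcription factors GATA1 and KLF1 switch on genes for heme, globin and the red cell membrane, while stem cell and lymphoid genes are shut down. Erythropoietin drives the red cell lineage through its receptor and the kinase JAK2. The JAK2V617F mutation makes that kinase active without the cytokine and causes myeloproliferative disease with excess red cells or platelets. EZH2 places the repressive methyl marks of Polycomb on histone H3.

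Levels below are log2 signals relative to the 75th percentile of the array. A gene was represented by its brightest probe and counted as measured where that probe was well above background on both arrays. A difference is MEP minus LSK on the log2 scale, given relative to the median measured gene, and a gene is called higher or lower in MEPs when the difference is at least 1, which is 2-fold. With 1 array per group there is no replicate and no test, so the counts and differences describe these arrays. Where a gene had several probes, their differences varied with an SD of 0.37, which covers probe error on the slide and neither mice nor sorts. In sorted bulk samples, fewer cells of a type and less RNA per cell cannot be told apart. Under DMSO 12402 of 21151 genes were measured, of which 704 (5.68%) were higher and 535 (4.31%) were lower in MEPs (9.99% either way), and 131 and 68 passed 4-fold. Another 1322 genes were above background on the MEP array alone and 321 on the LSK array alone. The dimmest probe well above background was at -4.24 on the MEP array and -3.38 on the LSK array under DMSO. Folds with a reading near these limits are loosely set. Before centring, the median measured gene was at -0.22, and the split was 480 higher and 905 lower. Scaling to the spike-in probes instead placed the median gene at 0.91 and gave 5299 higher and 74 lower, and quantile normalization gave 570 and 852. All differences below are therefore relative to the median gene. Spike-in scaling adds 0.91 to each of them, under which 20 of the 37 gene list medians change sign, and medians within 0.37 of 0 have no settled direction. The lists overlap in some members.

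The MEP array under DMSO stood apart from the others. Its correlation with each of the other 3 arrays was 0.973 to 0.976 over 23005 probes, against 0.979 to 0.991 among those 3. Of the probes matched to a gene, 64.5% were well above background there and 59.1% to 60.6% on the other arrays. For probes to unannotated genomic intervals the shares were 37.4% and 24.9% to 28.7%. It is the only MEP array under DMSO, so no value can be given without it, and the MEP and LSK arrays under JQ1, which share no array with this pair, are shown beside the main results.

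Markers went with the MEP label throughout and with the LSK label only in part. All 9 MEP markers were higher in MEPs, and their summed linear level was 28.9 on the LSK array and 230.2 on the MEP array under DMSO, and 28.3 and 283.8 under JQ1. Of 11 LSK markers, 4 were lower in MEPs under DMSO, 6 did not pass 2-fold and Slamf1 was higher. Ly6a, which encodes the Sca-1 antigen on which LSK cells are sorted, was at 4.49 on the LSK array and -0.32 on the MEP array under DMSO, and at 4.28 and 0.22 under JQ1. It was 24.0-fold lower in MEPs under DMSO, which restates the sort and is no finding. Kit, the stem cell factor receptor by which both cell types are usually sorted, was at 4.45 and 3.57 under DMSO and 4.42 and 3.85 under JQ1, a difference of -0.67 and -0.65. Cd34, a sialomucin that MEP gates usually exclude, remained well above background on every array, with a difference of -0.88 under DMSO and -1.53 under JQ1.

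**Figure D1:**
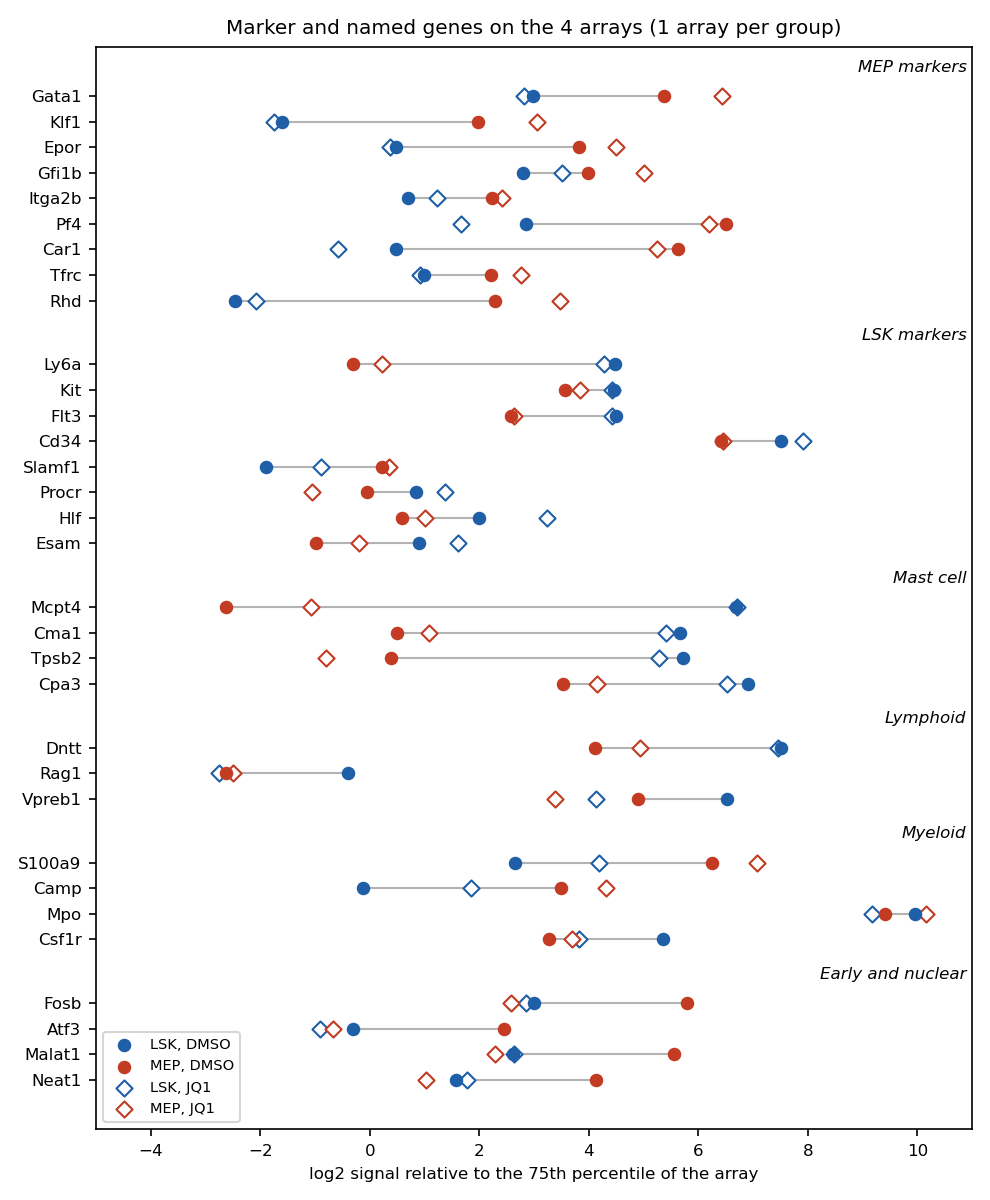
Log2 signal relative to the 75th percentile of the array (x axis) for marker and named genes, with 1 point per array, filled circles for DMSO and open diamonds for JQ1, blue for LSK and red for MEP; grey lines join the 2 DMSO arrays. Klf1 lies at -1.60 and 1.97 under DMSO and Mcpt4 at 6.68 and -2.62, with the JQ1 arrays on the same sides, whereas Fosb and Malat1 are raised on the MEP array under DMSO alone.

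The erythroid transcription factors were led by Klf1 and Gata1. Of 18 measured factors, 5 were higher in MEPs and none was lower, with a list median of 0.27. Klf1, the erythroid Kruppel-like factor, was at -1.60 on the LSK array and 1.97 on the MEP array under DMSO, and at -1.76 and 3.05 under JQ1. Both MEP arrays were far above both LSK arrays, and the DMSO difference was 3.79, which is 13.8-fold. Gata1, the master regulator of both lineages, was at 2.98 and 5.37 under DMSO and 2.81 and 6.43 under JQ1, a 6.11-fold difference under DMSO. Its partner Zfpm1, also called FOG1, differed by 1.30 and the repressor Gfi1b by 1.41. Tal1, which assembles the GATA1 complex on DNA, lay just past 2-fold at 1.04. The same 5 factors were also past 2-fold under JQ1, where 3.92% of 12257 measured genes were higher and 4.01% lower. Gata2, which precedes Gata1 in progenitors, stayed below 2-fold with a difference of 0.91 under DMSO and 0.69 under JQ1. Among 10 progenitor factors known to be lost along the erythroid path, none passed 2-fold in either direction, and Spi1, the myeloid factor PU.1, differed by -0.34.

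Promoter sequence is shown for genes at both ends of the comparison that hold the motif bound by Gata1 and Gata2. The RefSeq promoter table gives sequence on build GRCm38.p6, and each line below is the 150 bases before a transcript start, 5′ to 3′ on the strand of the gene. The motifs searched on both strands were AGATAA or TGATAA for GATA factors and CCACACCC or CCCCACCC for Kruppel-like factors; the letters of the 2 kinds do not overlap in the lines shown, and capitals mark a match on either strand. Klf1 and Epor carry the motif reversed, Kel carries it at 2 places, and Epor holds both kinds. Mcpt4 and Cpa3, mast cell genes that are low in MEPs, hold it too.
Klf1 (chr8:84901832-84901981, plus strand): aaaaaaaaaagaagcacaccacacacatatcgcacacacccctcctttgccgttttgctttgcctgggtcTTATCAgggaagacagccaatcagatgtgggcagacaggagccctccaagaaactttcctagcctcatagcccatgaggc
Epor (chr9:21963577-21963726, minus strand): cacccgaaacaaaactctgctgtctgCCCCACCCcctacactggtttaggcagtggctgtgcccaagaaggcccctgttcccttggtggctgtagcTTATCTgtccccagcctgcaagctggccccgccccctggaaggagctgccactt
Rhd (chr4:134864386-134864535, plus strand): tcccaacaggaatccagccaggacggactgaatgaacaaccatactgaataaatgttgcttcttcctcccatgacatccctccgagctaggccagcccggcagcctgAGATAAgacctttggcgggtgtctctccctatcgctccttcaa
Kel (chr6:41704326-41704475, minus strand): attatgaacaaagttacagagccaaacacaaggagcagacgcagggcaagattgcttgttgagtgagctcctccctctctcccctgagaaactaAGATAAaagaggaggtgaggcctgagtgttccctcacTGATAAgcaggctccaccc
Mcpt4 (chr14:56062311-56062460, minus strand): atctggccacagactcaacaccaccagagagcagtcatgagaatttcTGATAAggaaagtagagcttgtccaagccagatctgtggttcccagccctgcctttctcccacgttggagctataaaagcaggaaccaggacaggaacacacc
Cpa3 (chr3:20242182-20242331, minus strand): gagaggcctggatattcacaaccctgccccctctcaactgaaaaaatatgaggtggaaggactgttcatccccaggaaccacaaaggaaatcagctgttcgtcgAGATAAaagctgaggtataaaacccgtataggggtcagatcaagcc
Over all 27025 genes with a promoter in the table, 11.2% held the GATA motif in this window in at least 1 listed promoter, and over the measured genes 6.15% did. The share was 8.45% of the genes 2-fold higher in MEPs, 18.8% of those 4-fold higher, 9.73% of those 2-fold lower and 15.6% of those 4-fold lower. It was 7 of 12 for the red cell membrane genes past 2-fold, 7 of 12 for the mast cell and basophil genes past 2-fold in either direction and 1 of 14 for the megakaryocyte genes. The CACCC motif was in 12% of measured genes and in 15.3% of those 2-fold higher. Several mast cell proteases are close paralogs, so they may not be independent counts. Similarity between their promoters was not measured. A match describes these letters and is no evidence of binding.

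Genes of the red cell surface and membrane supplied 8 of the 15 highest differences. Of 35 measured members, 16 were higher in MEPs and none was lower, with a median of 0.76 under DMSO and 0.96 under JQ1. Car1, carbonic anhydrase 1, was at 0.47 on the LSK array and 5.62 on the MEP array under DMSO, and at -0.57 and 5.25 under JQ1. It had the highest difference in the direction of MEPs, 41.4-fold. Rhd, the Rh blood group antigen, was at -2.46 and 2.28 under DMSO and -2.08 and 3.47 under JQ1, a 31.0-fold difference. The sphingosine kinase Sphk1 was at -1.51 and 3.21 under DMSO and -2.38 and 4.11 under JQ1, a 30.7-fold difference. For these 3 genes each MEP array was above both LSK arrays by several log2 units. The water channel Aqp1 differed by 4.45, the transporter Tspo2 by 4.35, the Kell blood group antigen Kel by 4.23 and the tight junction gene Cldn13 by 4.13. The LSK readings of Rhd, Kel and Cldn13 under DMSO, -2.46, -2.23 and -2.66, were dim, so their folds are loosely set. Epor, the erythropoietin receptor, was at 0.49 and 3.82 under DMSO and 0.36 and 4.49 under JQ1, an 11.7-fold difference. Of the 14 higher members that were also measured under JQ1, 13 passed 2-fold there as well. Another 12 members were above background on the MEP array alone, and 9 of these were at least 2-fold higher by their bound. Over all genes, 1322 were above background on the MEP array alone, and 285 of them were at least 2-fold higher by their bound. Add2, the red cell membrane skeleton protein beta-adducin, was at least 26.3-fold higher. A bound sets the array without signal at the higher of the probe's own reading and its dimmest probe well above background, and the true fold can be smaller where a probe's own detection limit lies higher.

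Heme synthesis and iron genes moved the same way by less. Of 29 measured members, 24 lay above the median gene, as 50% of all genes do by construction, and 6 passed 2-fold, with none lower and a median of 0.50. Blvrb, biliverdin reductase B, was at 1.25 and 4.09 under DMSO and 1.20 and 4.61 under JQ1, an 8.33-fold difference. Cpox, a late enzyme of heme synthesis, differed by 1.82, and the transferrin receptors Tfrc and Tfr2 by 1.44 and 1.30. Slc25a38, the mitochondrial glycine carrier for heme synthesis, differed by 1.17. Under DMSO the erythroid rate-limiting enzyme Alas2 was not well above background on either array, while its ubiquitous counterpart Alas1 differed by -0.83. Slc4a1, the anion exchanger band 3, was near the detection limit at -2.32 and -2.37 under DMSO.

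The globin probes did not move together. Hba-a1 was at -0.49 and 2.32 under DMSO and -1.13 and 4.11 under JQ1, and Hba-a2 at 2.28 and 4.90 under DMSO and 1.5 and 6.84 under JQ1. These alpha globin genes were 8.18-fold and 7.15-fold higher in MEPs under DMSO. Hbb-b1 was 4.47-fold higher. The probe for Hbb-bt, another adult beta globin, was at 7.31 and 5.64 under DMSO and 7.39 and 6.66 under JQ1, which is 2.74-fold lower in MEPs. The beta globin copies are nearly identical, and signal on these probes cannot be assigned to 1 copy.

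Megakaryocyte and platelet genes were higher in MEPs as well. Of 44 measured members, 14 were higher and 2 lower under DMSO, with a median of 0.49, and 12 of the 12 higher members measured under JQ1 passed 2-fold there too. Pf4, platelet factor 4, was at 2.84 on the LSK array and 6.51 on the MEP array under DMSO, and at 1.66 and 6.20 under JQ1, a 14.8-fold difference. Cavin2 differed by 3.12, the platelet receptor Treml1 by 2.41, Thbs1, thrombospondin 1, by 2.32, and the ADP receptor P2ry1 by 2.27. Among surface markers of the lineage, Itga2b (CD41) differed by 1.76 and Gp1bb by 2.04, while Itgb3 differed by 0.19 and Gp1ba by -0.31. Vwf, the von Willebrand factor carried by megakaryocytes and endothelium, was 4.01-fold higher. The receptors Tbxa2r, for thromboxane, and Cxcr4 were lower, with differences of -1.87 and -1.12.

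**Figure D2:**
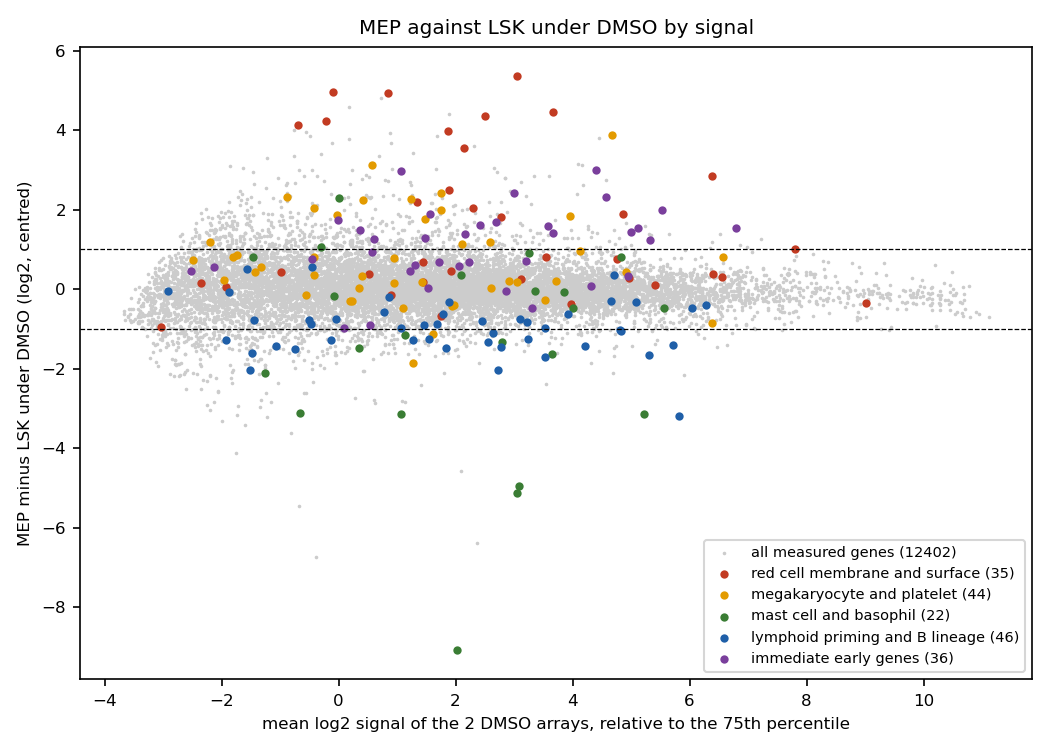
MEP minus LSK under DMSO (y axis, log2, centred on the median gene) against the mean log2 signal of the 2 arrays (x axis) for the 12402 measured genes in grey, with 5 gene lists in colour and dashed lines at 2-fold. Red cell genes reach 5.37 and Mcpt4 reaches -9.09, and the grey cloud widens toward low signal, where 18.2% of the dimmest 3101 genes are past 2-fold against 4.03% of the brightest 3101.

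Stem cell genes went both ways between MEPs and LSK cells. Of 31 measured stem cell transcription factors, 3 were lower and 2 higher under DMSO, against 8 lower and 2 higher of 29 under JQ1, and the medians were -0.13 and -0.54. Over all measured genes, 4.31% were lower and 5.68% higher under DMSO, and 4.01% and 3.92% under JQ1. The DMSO counts of these factors are too small to set apart from those shares. Hlf, a stem cell factor, was at 1.99 on the LSK array and 0.59 on the MEP array under DMSO, and at 3.23 and 1.01 under JQ1, 2.27-fold lower under DMSO. The chromatin organizer Satb1 and the homeobox gene Nkx2-3 were lower by 1.34 and 1.33. Mecom, which encodes EVI1, was above background on both DMSO arrays at -2.80 and -2.15, and Meis1 differed by -0.04. Of 64 measured surface and signalling genes of stem and multipotent cells, 8 were lower and 8 higher. Flt3, a receptor of multipotent and lymphoid progenitors, was at 4.50 and 2.57 under DMSO and 4.43 and 2.63 under JQ1, 3.26-fold lower. The adhesion genes Robo4 and Esam were lower by 2.05 and 1.67. Slamf1, which encodes the stem cell marker CD150 that is also found on early megakaryocyte-erythroid cells, was at -1.90 and 0.23 under DMSO and -0.90 and 0.35 under JQ1, 5.10-fold higher in MEPs under DMSO. Vcam1 and Apoe were 3.18-fold and 2.85-fold higher. Every one of the 8 lower genes was also past 2-fold lower under JQ1, and 5 of the 8 higher genes were past 2-fold higher there.

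Across the 37 gene lists the median was lowest for lymphoid genes under DMSO. Of 46 measured members, 21 were lower, none was higher and 43 lay below the median gene, with a median of -0.93. Dntt, the terminal transferase of lymphoid progenitors, was at 7.52 on the LSK array and 4.12 on the MEP array under DMSO, and at 7.46 and 4.93 under JQ1, 9.06-fold lower under DMSO. Vpreb1, a part of the surrogate light chain, was at 6.52 and 4.91 under DMSO and 4.12 and 3.39 under JQ1. Rag1, the recombinase gene, was at -0.39 and -2.63 under DMSO and -2.76 and -2.50 under JQ1. The LSK array under DMSO alone was high for it. Ly6d differed by -2.03 under DMSO and -0.54 under JQ1, and the interleukin 7 receptor Il7r by -1.27 and -0.05. Of the 20 lower members measured under JQ1, 6 were past 2-fold lower there. The 6 B lineage markers had a summed level of 112.7 on the LSK array and 38 on the MEP array under DMSO against 21.2 and 12.5 under JQ1, and the B cell factor Pax5 was not above background on any array. Jchain, the immunoglobulin joining chain of antibody-secreting cells, was at 2.18 on the LSK array under DMSO and 1.02 under JQ1. It was not well above background on either MEP array, at least 74.0-fold lower under DMSO and 26.65-fold lower under JQ1. Whether B lineage cells in the LSK sample had a part in these differences was not tested. Of 17 measured NK and T cell genes, 3 were lower and none higher, with a median of -0.52 under DMSO that turned to 0.39 with spike-in scaling, and 0.12 under JQ1.

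The deepest differences of the comparison included mast cell genes, which were high on both LSK arrays. Mcpt4, a chymase of connective tissue mast cells, was at 6.68 on the LSK array and -2.62 on the MEP array under DMSO, and at 6.72 and -1.08 under JQ1. It was 543-fold lower in MEPs under DMSO, and both LSK arrays were high. Tpsb2, mast cell tryptase, was at 5.72 and 0.39 under DMSO and 5.28 and -0.80 under JQ1, 34.6-fold lower. Cma1, another chymase, was at 5.66 and 0.50 under DMSO and 5.40 and 1.08 under JQ1, 30.7-fold lower. Cpa3, the mast cell carboxypeptidase, was at 6.90 and 3.53 under DMSO and 6.52 and 4.15 under JQ1, 8.87-fold lower. The related Cma2 and Mcpt-ps1 were 83.2-fold and 108-fold lower, and Tpsg1, a further tryptase, was at least 159-fold lower by its bound. Mcpt-ps1 was at -3.86 on the MEP array, near the dimmest probe well above background there (-4.24), so its fold is loosely set. The fold of Mcpt4 also rests on a dim MEP reading, -2.62. Of 22 measured members of the mast cell and basophil list, 11 were lower and 2 higher, and 5 more were above background on the LSK array alone. The median was -0.82 under DMSO and -0.88 under JQ1, and it turned to 0.10 with spike-in scaling under DMSO. Of the 11 lower members, 10 passed 2-fold under JQ1.

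The list was not low throughout. The high-affinity IgE receptor genes Fcer1a and Ms4a2, which mast cells and basophils share, differed by -0.47 and 0.81, and the basophil protease Mcpt8 by -1.32. Il6 and Il4, cytokines that are not restricted to mast cells, were the higher members at 2.28 and 1.06. The summed level of the 5 mast and basophil markers was 204.7 on the LSK array and 30.1 on the MEP array under DMSO, and 157.2 and 33.95 under JQ1, with all 5 above background on all 4 arrays. Mast cells carry c-Kit and can carry Sca-1, and their part in the LSK values was not tested. Cyp11a1, the first enzyme of steroid synthesis and a member of this list, was 8.85-fold lower. Outside the list, Rprm was 43.5-fold and the granule protein Chga 12.2-fold lower, and these 3 genes were past 2-fold lower under JQ1 too. The MEP readings of Rprm and Chga under DMSO, -3.51 and -2.73, were dim.

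Some of the tissue kallikreins were high on the LSK array under DMSO alone. Klk1, a serine protease of glandular tissue, was at 0.42 on the LSK array and -3.93 on the MEP array under DMSO, and at -2.98 under JQ1 in LSK cells. Klk1b5 and Klk1b26 were above background on the LSK array and not on the MEP array, at least 46.2-fold and 31.5-fold lower by their bounds. In all, 2 of 6 measured members were lower, 6 others were above background on the LSK array alone and 9 on neither, with a median over the measured members of -0.47 that turned to 0.44 with spike-in scaling. These paralogs are similar in sequence, and the signal may be shared between their probes. The LSK array under JQ1 read -2.60 for Klk1b5 and -3.10 for Klk1b26 against 1.5 and 0.95 under DMSO.

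Some neutrophil genes were among the higher genes in MEPs. Of 16 measured secondary granule and alarmin genes, 6 were higher and 2, Mmp8 (-1.64) and Padi4 (-1.52), lower, with a median of 0.07 under DMSO and 0.55 under JQ1. Camp, cathelicidin, was at -0.13 on the LSK array and 3.50 on the MEP array under DMSO, and at 1.85 and 4.32 under JQ1, 14.4-fold higher. S100a9, a subunit of calprotectin, was at 2.65 and 6.24 under DMSO and 4.18 and 7.08 under JQ1, 14.0-fold higher, and its partner S100a8 was 8.74-fold higher. Both MEP arrays exceeded both LSK arrays for these genes. Ltf, lactoferrin, and Ngp were above background on the MEP array and not on the LSK array under DMSO, at least 14.5-fold and 13.6-fold higher by their bounds. Among 22 measured primary granule genes 1 was higher and none lower, 20 lay below the median gene, and the median was -0.38 under DMSO, 0.53 with spike-in scaling and 0.30 under JQ1. Mpo, myeloperoxidase, was at 9.96 and 9.41 under DMSO and 9.18 and 10.16 under JQ1, and the elastase gene Elane was at 5.73 and 5.25 under DMSO and 4.71 and 6.99 under JQ1. Cebpe, the factor of secondary granule genes, was 2.58-fold higher in MEPs. The 8 granulocyte markers summed to 1133 on the LSK array and 890.8 on the MEP array under DMSO, and to 685.6 and 1619 under JQ1. These sums are linear, and Mpo, the brightest of the markers on every array, weighs most in them. The part of granulocytic cells in either sample was not tested.

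Monocyte, macrophage and dendritic genes were lower in MEPs under DMSO, with 12 of 36 measured members lower and 2 higher and a median of -0.38 that turned to 0.54 with spike-in scaling; the JQ1 median was -0.03. Ly6c1 was at 7.09 on the LSK array and 4.72 on the MEP array under DMSO, and at 5.97 and 6.43 under JQ1. F13a1, coagulation factor XIII of monocytes and platelets, was at 5.84 and 3.53 under DMSO and 3.58 and 3.81 under JQ1. For both, the LSK array under DMSO was high and the JQ1 arrays differed little. Csf1r, the receptor for macrophage colony-stimulating factor, was at 5.35 and 3.27 under DMSO and 3.82 and 3.69 under JQ1, but its 3 probes disagreed, with differences from -1.86 to 0.21. Trem2 was 7.80-fold lower under DMSO and differed by -0.15 under JQ1. Of the 12 lower members, 2 were lower under JQ1. The monocyte markers summed to 46.4 and 11.6 under DMSO and 17.3 and 15.1 under JQ1. These sums are linear, and Csf1r, whose probes disagreed, was the brightest of the markers on every array and weighs most in them. Of 11 measured genes of MHC class II presentation, none was lower, and Ciita, the class II transactivator, was 4.48-fold higher under DMSO and differed by 0.51 under JQ1.

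Most cytokine receptors past 2-fold were lower in MEPs. Of 53 measured receptors and transducers, 2 were higher and 10 lower in MEPs, with a median of -0.38 that turned to 0.53 with spike-in scaling. Epor was the higher receptor and the cytokine Osm the other higher member, at 1.62 under DMSO and -0.50 under JQ1. Lower receptors included Flt3, Il7r, Il1r1 (-1.24) and Il1rl1 (-1.64), the last with 3 probes from -1.95 to 0.65. Jak2 itself was at 2.28 and 2.79 under DMSO and 2.42 and 3.12 under JQ1, a difference of 0.73 and 0.63. Of 43 measured interferon response genes, 6 were lower and none higher, with a median of -0.44 under DMSO that turned to 0.47 with spike-in scaling, and -0.67 under JQ1. Ifit3 was lower by 2.02 and Zbp1 by 1.69.

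Immediate early genes were higher in MEPs under DMSO and not under JQ1. These genes are known to respond quickly to growth factors and stress. Of 36 measured members, 19 were higher and none lower, with a median of 1.25, against none higher, 3 lower and a median of 0.02 under JQ1. Fosb was at 3.00 on the LSK array and 5.79 on the MEP array under DMSO, and at 2.86 and 2.59 under JQ1. Atf3, a stress-induced factor, was at -0.30 and 2.45 under DMSO and -0.92 and -0.68 under JQ1. The nuclear receptor Nr4a1 was at 1.89 and 4.10 under DMSO and 2.34 and 1.53 under JQ1. In each case the MEP array under DMSO was above the other 3 arrays. For Nr4a1 those arrays were not level, with a difference of -0.88 under JQ1. Fos differed by 1.55 under DMSO and 0.25 under JQ1, and Klf6 by 2.0 and -0.26.

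A list of long noncoding RNAs, named for nuclear retention, followed the same arrays. Where each RNA lies in the cell was not checked. The list also holds the small nucleolar RNA host genes Snhg1 (1.66 under DMSO) and Snhg12 (1.94), and Norad (-0.27), so its counts describe the list and not nuclear RNA as such. Of 13 measured members, 7 were higher and none lower, with a median of 1.58 under DMSO and -0.14 under JQ1. Malat1, an abundant RNA of nuclear speckles, was at 2.62 on the LSK array and 5.55 on the MEP array under DMSO, and at 2.63 and 2.28 under JQ1. Neat1, the scaffold of paraspeckles, was at 1.56 and 4.14 under DMSO and 1.77 and 1.02 under JQ1. Kcnq1ot1 was 5.26-fold higher under DMSO and differed by -0.87 under JQ1. Pvt1 was higher in both pairs, by 2.62 and 1.53. Beside these values stands the larger share of interval probes above background on the MEP array under DMSO, 37.4% against 24.9% to 28.7%. The part of that wider signal in these differences was not tested, and what is particular to the array and what is particular to DMSO-treated MEPs cannot be told apart.

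Other stress-linked lists differed in how far the JQ1 pair followed. Of 22 measured p53 target genes, 7 were higher and none lower under DMSO, with a median of 0.69, against 5 higher, none lower and a median of 0.45 under JQ1, and 1 gene, Fas, passed in both. Mdm4 differed by 1.66 under DMSO and 0.43 under JQ1, and Gdf15 by 1.49 and 0.62. The apoptosis genes Bbc3 (PUMA) and Pmaip1 (NOXA) differed by 1.22 and 1.09 under DMSO and by 0.59 and -0.29 under JQ1. Of 19 measured heat shock genes 2 passed 2-fold, with a list median of 0.21, and these were the chaperones Hspb1 and Hspa1a, 7.32-fold and 4.58-fold higher, which also passed under JQ1. Of 30 measured inflammatory genes 6 were higher and 3 lower, with a median of -0.05. Tnfaip3, the NF-kappaB feedback inhibitor A20, was at 1.34 and 4.08 under DMSO and 1.1 and 1.42 under JQ1. Ccl2, a chemokine for monocytes, was 7.12-fold lower in MEPs under DMSO and lower by 4.11 under JQ1.

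**Figure D3:**
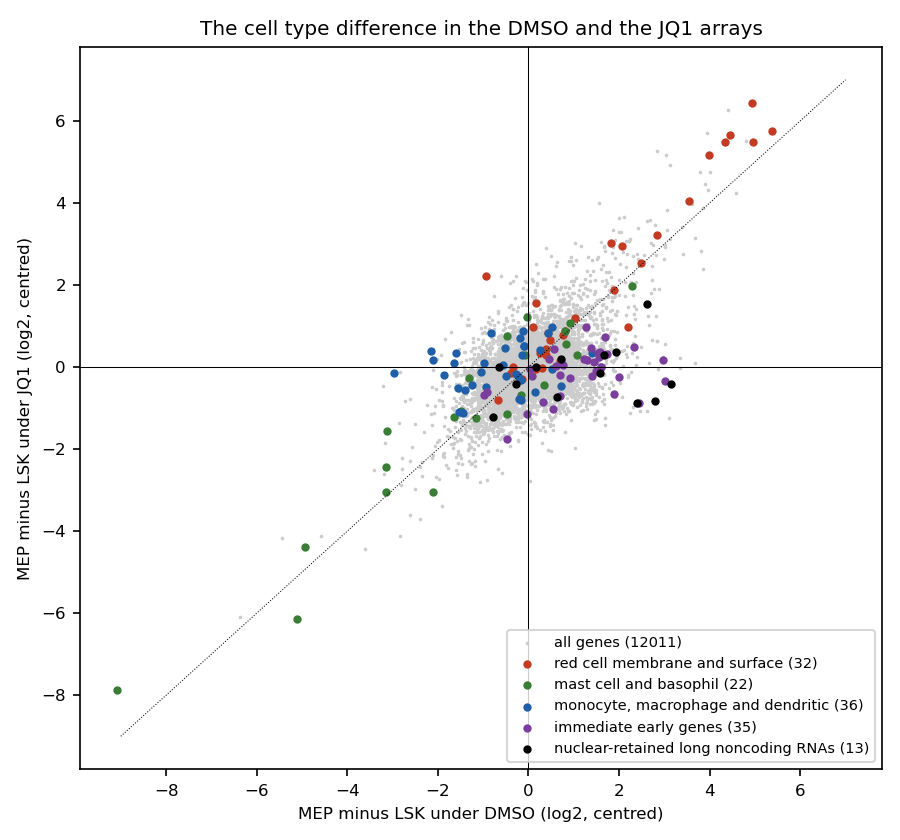
MEP minus LSK under JQ1 (y axis) against the same difference under DMSO (x axis), both log2 and centred, for 12011 genes measured in both pairs, with 5 lists in colour and a dotted line of equal values. Red cell and mast cell genes lie along the line at its ends. Immediate early genes and the nuclear RNA list spread to the right near a JQ1 value of 0.

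Housekeeping programmes held few calls. None of 35 measured mitosis genes, 53 ribosome biogenesis and Myc network genes, 79 ribosomal protein genes, 47 respiratory chain genes or 32 cholesterol and fatty acid synthesis genes passed 2-fold in either direction under DMSO, where 9.99% of all measured genes did. Their medians lay between -0.22 and 0.11. Of 46 DNA replication genes, Orc1 alone passed, at 1.02. Myc was at 4.17 and 3.87 under DMSO and 4.35 and 4.35 under JQ1. Bright genes passed less often in general, 4.03% of the 3101 brightest against 18.2% of the 3101 dimmest.

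Counts were small in the Polycomb, fetal-type and Hox lists. Over all measured genes under DMSO, 5.68% were higher and 4.31% lower in MEPs, and counts this small are read as no trait of a list. Of 31 measured subunits, Phf1, an accessory subunit of PRC2, alone passed 2-fold, at 1.44 under DMSO and -0.47 under JQ1. Of 40 fetal-type genes and known Polycomb targets on the array, 25 were above background on neither DMSO array and 11 were measured, of which 1 was higher, Fgf3 at 1.25, and 1 lower, Igf2bp3 at -1.39. Of 33 Hox genes, 13 were measured and Hoxb7 was lower by 1.06. Within the TGF-beta and matrix list, 3 of 30 measured genes were higher and 5 lower. Timp3, an inhibitor of matrix proteases, was 3.63-fold higher, and the growth factor Tgfb3 was 4.71-fold lower; their JQ1 differences were 3.34 and -0.92. Of 32 stromal, endothelial and epithelial genes on the array, 13 were above background on neither DMSO array and 13 were measured, of which 5 were higher in MEPs and 1, Lepr (-1.03), lower. The 6 stromal and endothelial markers summed to 1.26 on the LSK array and 1.98 on the MEP array under DMSO, and Cdh5, an endothelial cadherin, was not above background on any array. Col1a2 and Plvap were 4.64-fold and 3.75-fold higher in MEPs, and Col5a1, a fibrillar collagen gene, was 28.1-fold higher. The collagen gene Col3a1 went the other way and was above background on the LSK array and not on the MEP array. By its bounds it was at least 5.04-fold lower in MEPs under DMSO and 6.08-fold lower under JQ1.

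**Figure D4:**
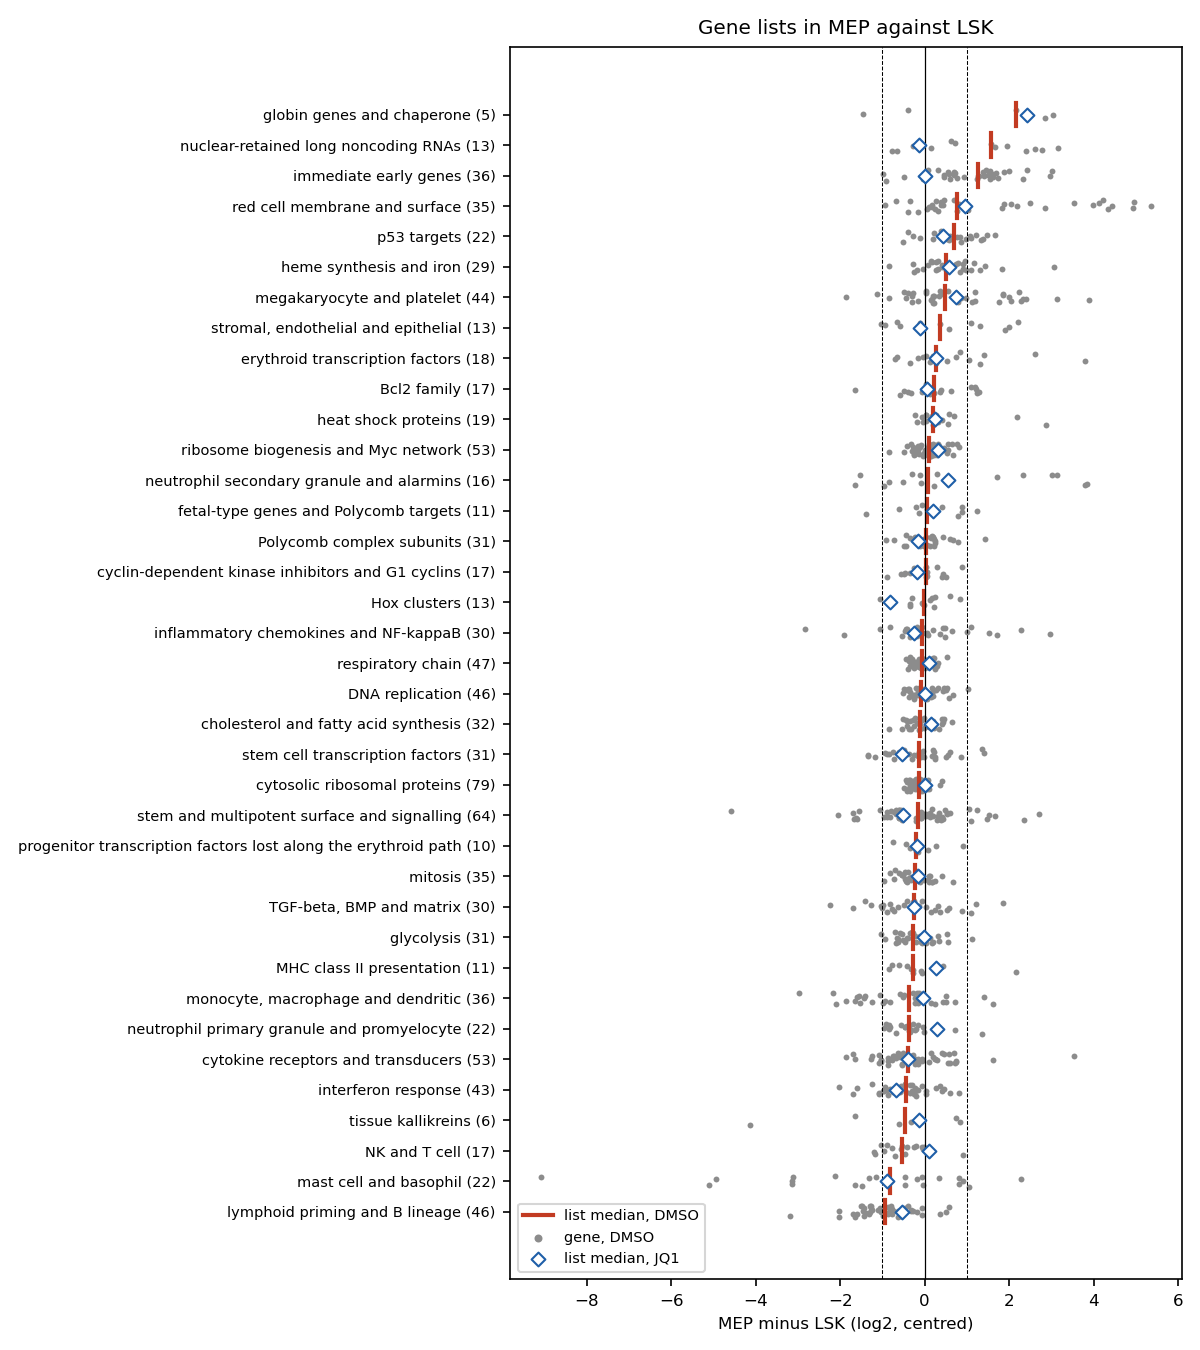
MEP minus LSK under DMSO (x axis, log2, centred) for every measured member of each gene list, with red bars for list medians under DMSO, open diamonds for medians under JQ1, and the number of measured members in parentheses; dashed lines mark 2-fold. Red cell and lymphoid lists sit at opposite sides in both pairs. The medians of immediate early genes (1.25) and the nuclear RNA list (1.58) fall to 0.02 and -0.14 under JQ1.

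Across the 12011 genes measured in both pairs, the differences under DMSO and under JQ1 had a Pearson correlation of 0.56 and a Spearman correlation of 0.40, a description across genes of 2 pairs on the same slide. Of the genes higher in MEPs, 219 passed 2-fold in both pairs, which is 32.5% of the 673 higher under DMSO and 48.9% of the 448 higher under JQ1. For lower genes the overlap was 192, which is 42.0% of 457 and 40.0% of 480. Opposite calls were 14 genes higher under DMSO and lower under JQ1 and 4 the reverse. Beside these overlaps stand the shares over all measured genes. Under DMSO 5.68% of 12402 were higher and 4.31% lower, and under JQ1 3.92% of 12257 were higher and 4.01% lower. Of 193 called genes with several measured probes, 171 had every probe on the same side.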

How the data were processed

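The 4 single-colour arrays on 1 slide were used, 1 per group. Per the file headers, the authors extracted scans with Agilent Feature Extraction 10.7.1.1 on design 028005 with mm9 probe positions; the deposited processed signal is an intensity after background subtraction and detrending, and other marks per the file headers flag outliers and signal well above background. The authors' deposited table holds a linear ratio whose 75th percentile is 1.00; above a value of 1 it was the scanner intensity over 1 constant per array, within 1%, for at least 99.96% of probes.

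Outlier and control spots were left out, log2 signals were averaged over the spots of a probe and scaled to the array's 75th percentile, and the brightest probe over 4 arrays stood for a gene. Accessions were matched to RefSeq (GRCm38.p6), which named 28026 of 55681 probes (50.3%) and left 27655 unnamed. Named genes were, for each list, up to 5 past 2-fold in each direction, the 15 highest and lowest, the 8 largest bounds each way, cell type markers, and 15 genes of interest; Alas1 was named after its values were seen, and some genes under this rule are not reported here. The members and lists were chosen with earlier results of these data known, as were the promoters and motifs shown and the thresholds for results singled out in the closing section. Nothing says the RNA came from separate mice. The count step was tested on simulated data. The normexp alternative (limma 3.58.1, R 4.3.3, offset 50) used the median signals that the files hold, in place of the mean signals first planned. Scripts ran in Python 3.11.15 with pandas 2.3.3. No saturated spots were found, and the median software error was 10.1% to 10.2% of the signal. The number of arrays limits the precision.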

Additional observations from a re-analysis of the deposited data

Results flagged for a closer look

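The following differences between MEPs and LSK cells had opposite signs under DMSO and JQ1 and lay at least 2 log2 units apart (for the list median, at least 1). Values within the probe spread of 0.37 of 0 have no settled direction. With 1 array per group none of these differences was tested, the limits were chosen after the values were seen, and all values are log2, MEP minus LSK, relative to the median gene.

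Nuclear and early genes were higher in MEPs under DMSO. Malat1 differed by 3.15 under DMSO and -0.42 under JQ1, Neat1 by 2.79 and -0.82, and Kcnq1ot1 by 2.40 and -0.87. The median of the list named for nuclear-retained long noncoding RNAs was 1.58 and -0.14. Fosb differed by 3.01 and -0.34, Nr4a1 by 2.43 and -0.88, Klf6 by 2.0 and -0.26, and Osm by 1.62 and -0.50.

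Other genes were lower in MEPs under DMSO. Rag1 differed by -2.02 under DMSO and 0.19 under JQ1, Ly6c1 by -2.16 and 0.39, and F13a1 by -2.10 and 0.17. The matrix genes Fn1, fibronectin, and Col4a2 differed by -1.70 and 0.86, and by -1.42 and 0.61.

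Elane, neutrophil elastase, was near 0 under DMSO: it differed by -0.27 under DMSO and 2.21 under JQ1.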

How the results depend on the processing

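No paired analysis was possible because each group has 1 array and all arrays carry the same replicate number, and for the same reason no array could be left out in turn. The counts of genes 2-fold higher and lower in MEPs, 704 and 535, depended on scaling and filter. The lower count was 905 with the 75th percentile alone and 852 with quantile normalization, where the higher counts were 480 and 570. Scaling to the spike-in probes gave 5299 and 74, normexp background correction 420 and 223, no background filter 2170 and 1189, and genes above the median signal 225 and 117. The mean over probes (675 and 551) and the authors' deposited table (703 and 535) stayed within 1.5 times. The share of called genes that were higher was 56.8% as reported, 34.7% with the 75th percentile alone, 98.6% with spike-in scaling and 40.1% with quantile normalization.

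The 37 list medians changed sign in 44 of 291 values under the 8 alternatives, 36 of them for medians within the probe spread of 0.37 of 0 and 8 for larger ones. With spike-in scaling the medians turned to 0.53 for primary granule genes, 0.54 for monocyte genes, 0.10 for mast cell genes, 0.39 for NK and T cell genes, 0.44 for kallikreins, 0.53 for cytokine receptors and 0.47 for interferon genes; this scaling adds 0.91 to every difference. With no background filter the globin median was -0.26 with more, dim probes counted. For named genes past 2-fold no difference changed sign in 1200 values under these alternatives, but most of these values could not have done so. Spike-in scaling, no centring and the changed filters shift every difference by a constant smaller than 1. The deposited table holds nearly the same values as the main setting. For the other named genes 34 of 209 values changed sign. Sizes were less settled than signs. With normexp background correction 70 of the 189 measured differences of named genes moved by at least the probe spread of 0.37, and 119 did not. The Klf1 difference went from 3.79 to 3.01. Dim genes passed 2-fold more often than bright ones, and 1 array per group limits every value.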

Other observations

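Several of the most extreme genes belong to no gene list. Among the highest in MEPs under DMSO were the chemokine Ccl17, 24.0-fold higher, the amino acid transporter Slc38a5, 21.2-fold higher, Smim1, which carries the Vel blood group antigen, 15.5-fold higher, and the sodium pump subunit Atp1b2, 15.3-fold higher. Their differences under JQ1 were 4.25, 6.26, 4.32 and 5.71 on the log2 scale. The LSK reading of Smim1 under DMSO, -2.42, was dim, so its fold is loosely set. Among genes above background on the MEP array and not on the LSK array, Sfrp4, a secreted Wnt antagonist, was at least 30.7-fold higher, the sterol transporter Abcg4 at least 21.2-fold, Aldh1a7 at least 19.1-fold and the mitochondrial carrier Slc25a21 at least 14.8-fold higher, and all 4 showed the same split under JQ1.

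At the other end, Sytl3 was 10.6-fold lower, the IgM receptor Fcmr 9.94-fold, Tmem178 9.32-fold and the monoamine oxidase Maob 8.96-fold lower in MEPs. These folds rest on dim readings on the MEP array under DMSO, -3.41, -3.76, -2.95 and -3.42, and are loosely set. Under JQ1, Sytl3 differed by -2.52 and Maob by -1.86, while Tmem178 differed by -0.47, its LSK level being 0.49 under DMSO and -2.17 under JQ1, and Fcmr was not above background on the MEP array. Fermt2 (kindlin 2) and Cxxc4 were above background on the LSK array under DMSO alone, at least 21.3-fold and 14.7-fold lower by their bounds, whereas Pla2g7 and Mrgprb1, a receptor of the mast cell Mrgpr family, were above background on both LSK arrays and on neither MEP array. Within the Bcl2 family 5 of 17 measured genes were higher and 1 lower in MEPs: Bik differed by 1.30 under DMSO and 1.35 under JQ1, Bcl2a1d by 1.25 and 2.15, and Bok by -1.64 and -1.85.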
